A study of Homo sapiens with 2 samples.

Results

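The calcium exchangers and calcium pumps are 8 genes whose proteins move calcium ions across membranes: SLC8A1, SLC8A2, SLC8A3 and SLC8B1 encode sodium-calcium exchangers, and ATP2B1, ATP2B2, ATP2B3 and ATP2B4 encode calcium pumps. The family was chosen by a measured value, the higher level of SLC8A1 RNA in LARP7 knockout cells, and its members are all genes of both kinds by symbol. The 8 genes hold 79 annotated transcripts, of 57894 genes and 197318 transcripts in all, and 56 of the 79 had a read in at least 1 library. Because SLC8A1 selected the family, its difference between knockout and parental cells is given below as a description without a test.

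The libraries were total RNA from HEK293, an established line of human embryonic kidney origin. There were 2 libraries from a LARP7 knockout line, clone 1-11, and 2 from the parental HEK293 cells; both were grown in the same medium with no treatment named. The knockout is a single clone, so the loss of LARP7 and any other property of that clone cannot be told apart. The labels do not state whether both libraries of a group were grown apart, so p-values reflect only library-to-library spread, which may be technical. LARP7 is a La-related protein that binds the end of 7SK RNA, the small nuclear RNA that holds the transcription elongation kinase P-TEFb in an inactive complex.

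A cell keeps its cytosolic calcium far below the level outside, and 2 kinds of protein in the plasma membrane carry it out. Sodium-calcium exchangers use the sodium gradient made by the sodium-potassium ATPase, with a low affinity and a high capacity for calcium, and they are best known from heart muscle and nerve cells. Plasma membrane calcium ATPases use ATP, bind calcium with high affinity and are activated by calmodulin, the cell's main calcium sensor. SLC8B1 belongs to the exchangers by sequence, but its protein works in the inner mitochondrial membrane, where it returns calcium from the mitochondrial matrix to the cytosol.

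The libraries held 16838501 and 16218587 estimated reads in knockout cells and 18483220 and 12851942 in parental cells. Levels are given as CPM, a gene's reads scaled to libraries of one common size after TMM correction, for comparing libraries, and as TPM, which also divides by transcript length, for comparing genes. LARP7 RNA had 36.1 and 31.9 CPM in knockout cells, against 59.8 and 46.5 CPM in parental cells, a log2 difference of -0.65 (SE 0.16) that did not pass the test (adjusted p = 0.135, edgeR). 7SK RNA, on an annotated entry at chromosome 6, 52995620 to 52995950, had 169.5 and 204.5 CPM in knockout cells and 5572 and 5481 CPM in parental cells; it fell 29.6-fold (adjusted p = 1.13e-06, edgeR). Of 10 markers of HEK293 and embryonic kidney cells, 9 were present in the libraries above 1 CPM on average, PAX8 was at 0 in 3 of 4 libraries, and the list summed to 690.7 and 689.0 CPM in knockout cells and 655.6 and 626.1 CPM in parental cells. Most of that sum was VIM, and NEFM, a neurofilament gene of the same list, went the other way, with 7.76 and 8.58 CPM in knockout cells and 49.4 and 73.6 CPM in parental cells (log2 difference -2.91, SE 0.22, adjusted p = 0.00164, edgeR). Heart muscle markers summed to at most 0.117 CPM in any library, with MYH6, MYH7 and TNNT2 at 0. Mature neuron markers, none of which was at 0 in all libraries, summed to 7.82 and 7.75 CPM in knockout cells and 4.15 and 6.99 CPM in parental cells; blood markers summed to at most 1.302 CPM, with HBB at 0, and hepatocyte markers at most 0.355 CPM, with TTR at 0. In bulk RNA, fewer cells of a type and less RNA per cell cannot be told apart.

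SLC8A1 (ENSG00000183023) encodes NCX1, the exchanger of heart muscle that also works in kidney tubules and many other cells. It lies on chromosome 2, 40097270 to 40611053, on the minus strand of GRCh38. The gene had 39.9 and 46.9 CPM in knockout cells, from 683 and 792 reads, against 9.66 and 9.21 CPM in parental cells, from 170 and 116 reads. Both knockout libraries lay far above both parental libraries, and each pair was close. The means were 43.4 ± 4.95 CPM in knockout cells and 9.44 ± 0.318 CPM in parental cells (SD, n = 2 each), a log2 difference of 2.20 (SE 0.18), which is 4.59-fold. On the per-length scale SLC8A1 averaged 7.42 ± 1.78 TPM in knockout cells and 0.973 ± 0.0989 TPM in parental cells (SD, n = 2 each). With a transcript length offset in the count model the log2 difference was 2.51 (SE 0.28).

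**Figure D1:**
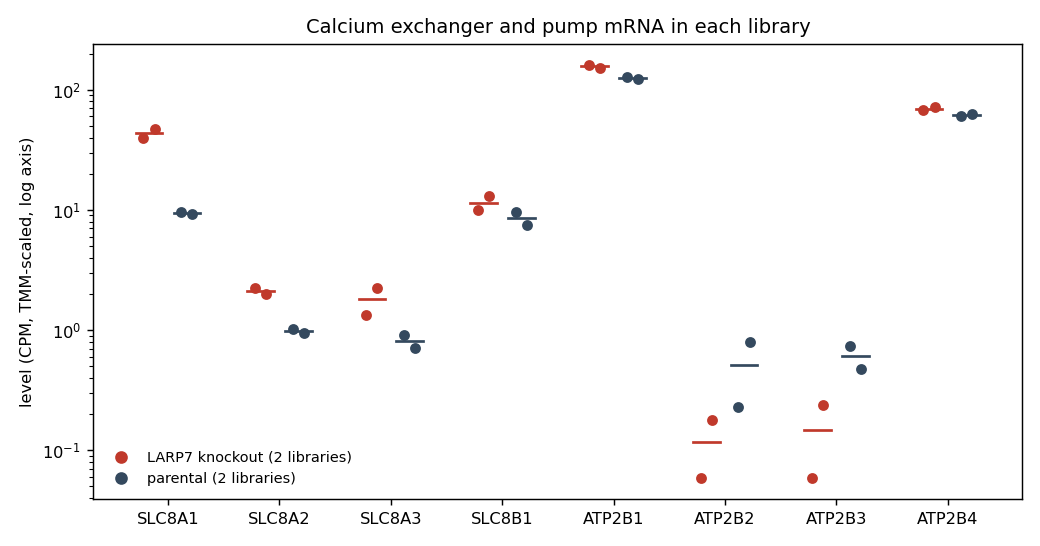
Level of each of the 8 genes in CPM with TMM scaling on a log axis; red points are the 2 LARP7 knockout libraries and dark points the 2 parental libraries, and short lines are group means. SLC8A1 averages 43.4 CPM in knockout cells and 9.44 CPM in parental cells, while the groups lie much nearer for ATP2B1 and ATP2B4, and ATP2B2 and ATP2B3 stay under 1 CPM.

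SLC8A1 transcripts differ in a pair of alternative exons that encode neighbouring versions of one stretch of the large cytoplasmic loop, the regulatory part of the exchanger that binds calcium. Exon A is known from heart and nerve cells and exon B from kidney and other tissues, and a messenger RNA normally carries one or the other. They are shown because they tell which form of the exchanger the RNA of these cells encoded. Exon A lies at chr2:40178387-40178493 (107 bases) and exon B at chr2:40177752-40177855 (104 bases), both coding and on the minus strand of GRCh38. Capitals mark bases that are identical when the 2 exons are aligned, 68 of 108 aligned columns or 63.0%.
SLC8A1 exon A: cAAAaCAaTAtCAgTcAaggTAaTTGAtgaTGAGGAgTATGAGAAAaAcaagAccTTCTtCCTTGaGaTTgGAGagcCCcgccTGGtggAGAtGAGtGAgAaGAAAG
SLC8A1 exon B: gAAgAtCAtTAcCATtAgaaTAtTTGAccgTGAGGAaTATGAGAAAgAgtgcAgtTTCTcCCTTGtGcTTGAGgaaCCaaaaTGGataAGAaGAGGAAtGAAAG

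Of the 12 SLC8A1 transcripts in the annotation, 5 carry exon B alone, 3 carry exon A alone, 1 carries both and 3 carry neither. The exon B transcripts had 662.2 and 694.5 estimated reads in knockout cells, against 158.0 and 87.3 in parental cells. Their summed level was 5.42 and 6.56 TPM in knockout cells and 0.740 and 0.603 TPM in parental cells. RNA with exon B, the form known from kidney, was thus most of the SLC8A1 TPM in every library: 87.8% and 75.6% in knockout cells, and 81.9% and 57.9% in parental cells. These shares overlap between the groups.

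Transcripts with exon A alone had no estimated reads in either knockout library, against 9.43 and 28.7 reads in parental cells. All but a trace of those were on SLC8A1-205. These transcripts made 14.5% and 42.2% of the SLC8A1 TPM in the parental libraries. The parental values rest on few reads that Salmon assigned by likelihood among transcripts sharing most of their sequence, and this share was not tested. The transcript with both exons, SLC8A1-208, which the annotation marks for nonsense-mediated decay, had 17.4 and 92.4 reads in knockout cells and 2.57 and 0 in parental cells.

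**Figure D2:**
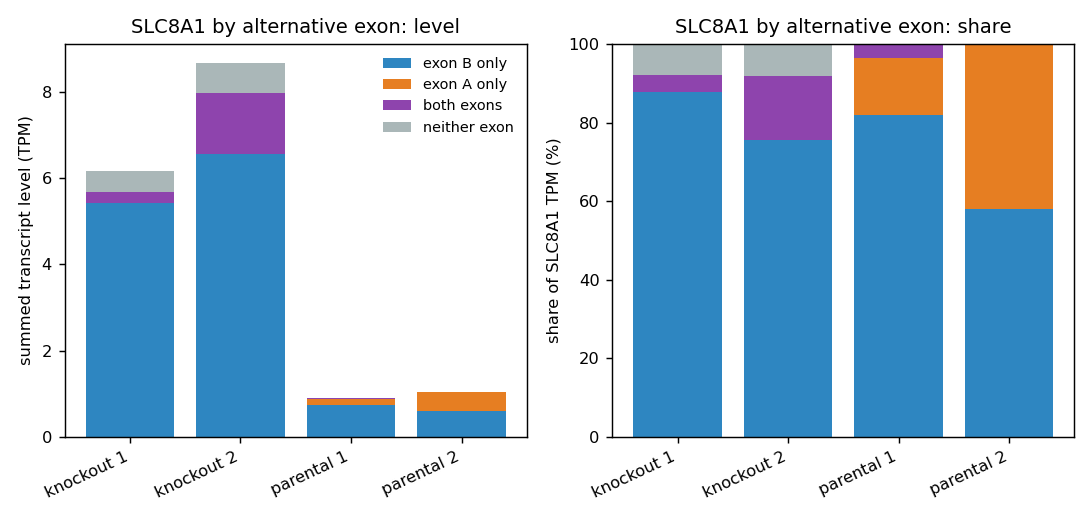
SLC8A1 transcripts grouped by the alternative exons they carry, as summed TPM (left) and as percent of the gene's TPM (right), in the 2 LARP7 knockout and the 2 parental libraries. Transcripts with exon B alone make up 75.6% or more of the gene in the knockout libraries and 57.9% or more in the parental libraries. Transcripts with exon A but not exon B appear only in the parental libraries. The transcript with both exons makes up 4.38% and 16.3% in the knockout libraries and 3.58% and 0% in the parental libraries.

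The main SLC8A1 models were SLC8A1-207, which is 20987 bases long with a coding sequence of 2811 bases, and SLC8A1-206, which is 2814 bases long and holds little more than the same coding length. SLC8A1-207 had 435.4 and 396.6 reads in knockout cells and 124.2 and 59.9 in parental cells. SLC8A1-206 had 226.9 and 261.7 reads in knockout cells and 0 and 27.5 in parental cells. SLC8A1-204, another exon B model, had 33.8 reads in parental replicate 1 and 0 in the other 3 libraries. SLC8A1-206 made 70.9% and 57.1% of the gene's TPM in knockout cells and 0% and 45.4% in parental cells, and the 2 parental libraries stood far apart from each other. The test of transcript usage, which asks whether shares of a gene's transcripts differ between groups, called no change for SLC8A1 (2 transcripts tested, adjusted p = 1, edgeR); without parental replicate 2 the adjusted p was 0.0640.

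An antisense gene, SLC8A1-AS1, shares 2040 exon bases with SLC8A1 on the opposite strand. It had 26 and 14 reads in knockout cells and 4 and 1 in parental cells, a log2 difference of 2.80 (SE 0.84) that did not pass the test (adjusted p = 0.183, edgeR). Whether the quantification used strand is not given in the sources used here, so reads over the shared bases cannot be assigned to one gene with certainty. The antisense reads came to 3.81% and 1.77% of the SLC8A1 reads in knockout cells and 2.35% and 0.862% in parental cells.

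The genes around SLC8A1 did not share its difference. Of the 20 nearest protein-coding genes tested, 10 on each side, 16 had a positive log2 difference, the median was 0.11, the range ran from -0.32 to 0.44, and none was called. The nearest were THUMPD2, with its start 0.832 Mb away and a log2 difference of 0.18 (SE 0.13), and PKDCC, 1.44 Mb away on the other side with 0.18 (SE 0.24).

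**Figure D3:**
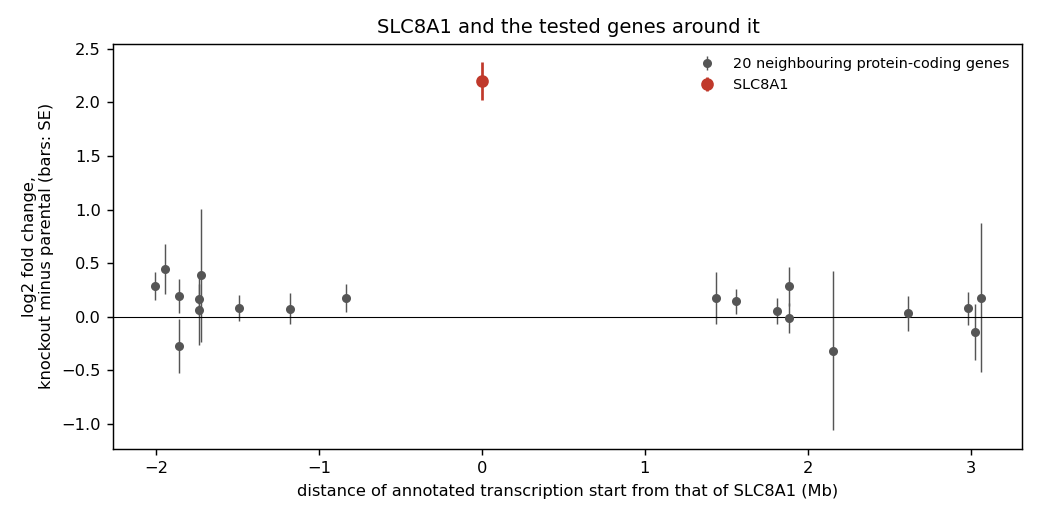
Log2 fold change of knockout minus parental with its SE (vertical) for SLC8A1 and the 20 tested protein-coding genes nearest to it, by distance between annotated transcription starts in Mb (horizontal). The neighbours lie between -0.32 and 0.44 and SLC8A1 at 2.20.

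The 5 protein-coding genes whose profile over the 4 libraries was most like that of SLC8A1, of 11096 compared by Euclidean distance of centred log2 CPM, were SPECC1L-ADORA2A, SAMD9, SYT14, SELENOP and EPHA6, at distances of 0.27, 0.32, 0.36, 0.38 and 0.46. SYT14, a synaptotagmin family member, had the level nearest to SLC8A1, with 42.5 and 41.1 CPM in knockout cells and 11.0 and 11.3 CPM in parental cells. SELENOP, the selenium transport protein, had 10.6 and 13.2 CPM in knockout cells and 2.22 and 3.10 CPM in parental cells. EPHA6, an ephrin receptor, had 10.3 and 10.8 CPM in knockout cells and 3.13 and 3.02 CPM in parental cells. With 4 libraries in 2 groups, likeness of this kind is mainly a like difference between the groups.

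SLC8A2 and SLC8A3 encode NCX2 and NCX3, exchangers known from brain and, for NCX3, also skeletal muscle. SLC8A2 (ENSG00000118160; chromosome 19, 47428017 to 47472168, minus strand) had 2.22 and 2.01 CPM in knockout cells and 1.02 and 0.953 CPM in parental cells. The groups do not overlap, but the values rest on 38 and 34 reads in knockout cells and 18 and 12 in parental cells, and the log2 difference of 1.09 (SE 0.50) did not pass the test (adjusted p = 0.367, edgeR). SLC8A3 (ENSG00000100678; chromosome 14, 70044217 to 70189070, minus strand) had 1.34 and 2.25 CPM in knockout cells and 0.909 and 0.715 CPM in parental cells, from 23 and 38 reads and 16 and 9 reads. Its log2 difference was 1.13 (SE 0.57), also short of the threshold (adjusted p = 0.419, edgeR). No transcript of these genes had enough reads for the usage test. The most read were SLC8A2-201, with 7.73 and 23.6 reads in knockout cells and 7.85 and 5.39 in parental cells, and SLC8A3-206, with 0 and 19.2 in knockout cells and 0 and 9.00 in parental cells.

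SLC8B1, the mitochondrial exchanger (ENSG00000089060; chromosome 12, 113298759 to 113359493, minus strand), had 9.92 and 13.1 CPM in knockout cells and 9.55 and 7.54 CPM in parental cells. Knockout replicate 1 lay only just above parental replicate 1. The log2 difference of 0.42 (SE 0.25) did not pass the test (adjusted p = 0.499, edgeR). For SLC8B1, 6 models entered the usage test, which called no change (adjusted p = 1, edgeR). SLC8B1-207, a coding model of 925 bases, had the highest share in the knockout libraries, 30.2% and 34.2% of the gene's TPM, against 20.8% and 11.0% in parental cells. PLBD2, the nearest of the tested genes, shares no exon base with SLC8B1 and was the only called gene among its 20 neighbours, with a log2 difference of -0.79 (SE 0.14, adjusted p = 0.0461, edgeR).

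Because the exchangers were scaled per length, their make-up within a library can be compared. SLC8A1 made 42.3% and 44.8% of the summed exchanger TPM in knockout cells, against 12.8% and 18.3% in parental cells. SLC8B1 made 48.5% and 43.7% in knockout cells, against 77.7% and 65.2% in parental cells. SLC8A2 made 7.60% and 8.81% in knockout cells and 6.16% and 15.2% in parental cells, and SLC8A3 at most 3.41% in any library. So in TPM SLC8A1 and SLC8B1 were at like levels in knockout cells, while SLC8B1 led the exchangers in both parental libraries. Reads, which are not scaled by length, had another order. SLC8A1 had 683 and 792 reads in knockout cells and 170 and 116 in parental cells. SLC8B1 had 170 and 221 reads in knockout cells and 168 and 95 in parental cells. The TPM order depends on the models given reads, such as SLC8A1-207 of 20987 bases and SLC8B1-207 of 925 bases. The shares of SLC8A1 contain the difference that chose the family and are given without a test.

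The pumps were the more abundant branch. ATP2B1 encodes PMCA1, the pump found in nearly all cells (ENSG00000070961; chromosome 12, 89588049 to 89709300, minus strand). It had 161.8 and 152.1 CPM in knockout cells, against 128.9 and 123.2 CPM in parental cells. The groups do not overlap, and the means were 156.9 ± 6.84 CPM in knockout cells and 126.1 ± 4.03 CPM in parental cells (SD, n = 2 each). The log2 difference of 0.32 (SE 0.12), 1.25-fold, was not called (adjusted p = 0.281, edgeR).

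ATP2B4 encodes PMCA4, the other pump with a broad range of tissues (ENSG00000058668; chromosome 1, 203626561 to 203744081, plus strand). It had 68.1 and 71.5 CPM in knockout cells and 60.2 and 62.6 CPM in parental cells, a log2 difference of 0.19 (SE 0.12) that did not pass the test (adjusted p = 0.539, edgeR). With the mean transcript length of each library taken into account, the difference was 0.0018. ATP2B2, the pump of inner ear hair cells and neurons (ENSG00000157087; chromosome 3, 10324023 to 10708007, minus strand), had 1 and 3 reads in knockout cells and 4 and 10 in parental cells. ATP2B3, a brain pump (ENSG00000067842; chromosome X, 153517676 to 153582939, plus strand), had 1 and 4 reads in knockout cells and 13 and 6 in parental cells. Both genes were too low to pass the filter of the main test.

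Per length, ATP2B1 led all 8 genes in every library, with 44.7 and 42.7 TPM in knockout cells and 33.7 and 22.2 TPM in parental cells. ATP2B4 followed, with 10.1 and 10.8 TPM in knockout cells and 7.06 and 8.30 TPM in parental cells. SLC8B1 came next in parental cells with 5.49 and 3.72 TPM; in knockout cells its 7.08 and 8.46 TPM overlapped the 6.17 and 8.68 TPM of SLC8A1. SLC8A2 had 1.11 and 1.71 TPM in knockout cells and 0.436 and 0.864 TPM in parental cells. In parental cells it lay below the 0.903 and 1.04 TPM of SLC8A1. In parental replicate 2, 94.4% of the SLC8A2 TPM was SLC8A2-205, a model of 570 bases with 6.61 reads. In reads SLC8A2 had 18 and 12 in parental cells, against 170 and 116 for SLC8A1. SLC8A3 had 0.240 and 0.518 TPM in knockout cells and 0.241 and 0.0819 TPM in parental cells, and in parental cells it overlapped ATP2B3. ATP2B3 and ATP2B2 overlapped each other at the low end in both groups. Within the pumps, ATP2B1 made 81.5% and 79.8% of the TPM in knockout cells and 82.3% and 72.5% in parental cells, which overlap.

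Pump transcripts differ in an exon near the 3′ end of the coding sequence, where inclusion changes the carboxy-terminal tail that binds calmodulin. These exons are shown because they separate a form with a changed tail from the widespread form. The ATP2B1 exon lies at chr12:89598590-89598743 (154 bases, minus strand, in 1 transcript, ATP2B1-202) and the ATP2B4 exon at chr1:203733223-203733400 (178 bases, plus strand, in 4 transcripts), on GRCh38. Capitals mark bases that are identical in the alignment of the 2 exons, 100 of 184 columns or 54.4%.
ATP2B1 alternative exon: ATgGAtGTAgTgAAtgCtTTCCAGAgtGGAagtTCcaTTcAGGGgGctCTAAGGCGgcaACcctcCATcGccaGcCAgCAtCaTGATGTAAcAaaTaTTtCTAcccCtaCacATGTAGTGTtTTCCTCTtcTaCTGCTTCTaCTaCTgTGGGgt
ATP2B4 alternative exon: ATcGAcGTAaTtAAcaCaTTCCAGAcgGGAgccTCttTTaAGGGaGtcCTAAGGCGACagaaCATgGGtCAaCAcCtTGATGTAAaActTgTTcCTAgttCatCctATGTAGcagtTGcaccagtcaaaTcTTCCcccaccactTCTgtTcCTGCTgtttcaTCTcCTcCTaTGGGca

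ATP2B1-202 had 35.9 and 36.1 estimated reads in knockout cells and 0 in both parental libraries. Among ATP2B1 transcripts with the full coding length it made 1.77% and 1.97% of the TPM in knockout cells and 0% in parental cells, so nearly all full-length ATP2B1 RNA lacked the exon in every library. It was below the share needed for the usage test. Among ATP2B4 transcripts with the full coding length, the share with the exon was 7.80% and 22.7% in knockout cells. It was 13.4% and 18.3% in parental cells, and the groups overlap. ATP2B4-202 and ATP2B4-207, which also carry the exon, lie outside this share. ATP2B4-202 made 28.4% and 12.2% of the gene's TPM in knockout cells and 14.3% and 11.3% in parental cells. ATP2B4-207 made 3.55% and 19.2% in knockout cells and 17.45% and 13.35% in parental cells.

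ATP2B1-201 and ATP2B1-204 encode the same coding length of 3660 bases and differ in an extra exon of ATP2B1-204. ATP2B1-201 had 1506 and 1404 reads in knockout cells and 1293 and 1120 in parental cells. ATP2B1-204 had 442.7 and 351.5 reads in knockout cells and 200.2 and 61.0 in parental cells, which was 7.25% and 5.93% of the gene's TPM in knockout cells and 3.53% and 1.81% in parental cells. Both knockout libraries were above both parental libraries in this share, as for 17.8% of the 36973 transcripts tested over all genes. The gene did not pass the usage test (7 transcripts, adjusted p = 1, edgeR); the lowest adjusted p among the alternatives was 0.133, without parental replicate 1. Of the 7 ATP2B1 models, 3 overlapped between the groups and 4 did not, 2 of them higher and 2 lower in knockout cells, where 34.6% of all transcripts tested did not overlap. ATP2B1-203, whose groups overlap, had 22.4% and 22.8% in knockout cells and 22.9% and 17.0% in parental cells. ATP2B1-210, a retained-intron model, had 7.600% and 7.80% in knockout cells and 6.53% and 4.87% in parental cells.

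ATP2B4-203, the model with the most reads, had 1065 and 876.6 in knockout cells and 845.2 and 591.0 in parental cells. It made 60.0% and 45.8% of the ATP2B4 TPM in knockout cells and 55.4% and 36.5% in parental cells, so libraries of one group differed as much as the groups did. ATP2B4 did not pass the usage test (4 transcripts, adjusted p = 1, edgeR). Over all 10148 genes with at least 2 transcripts tested, 84 or 0.828% were called for usage, and none of the 4 members tested, SLC8A1, SLC8B1, ATP2B1 and ATP2B4, was among them.

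**Figure D4:**
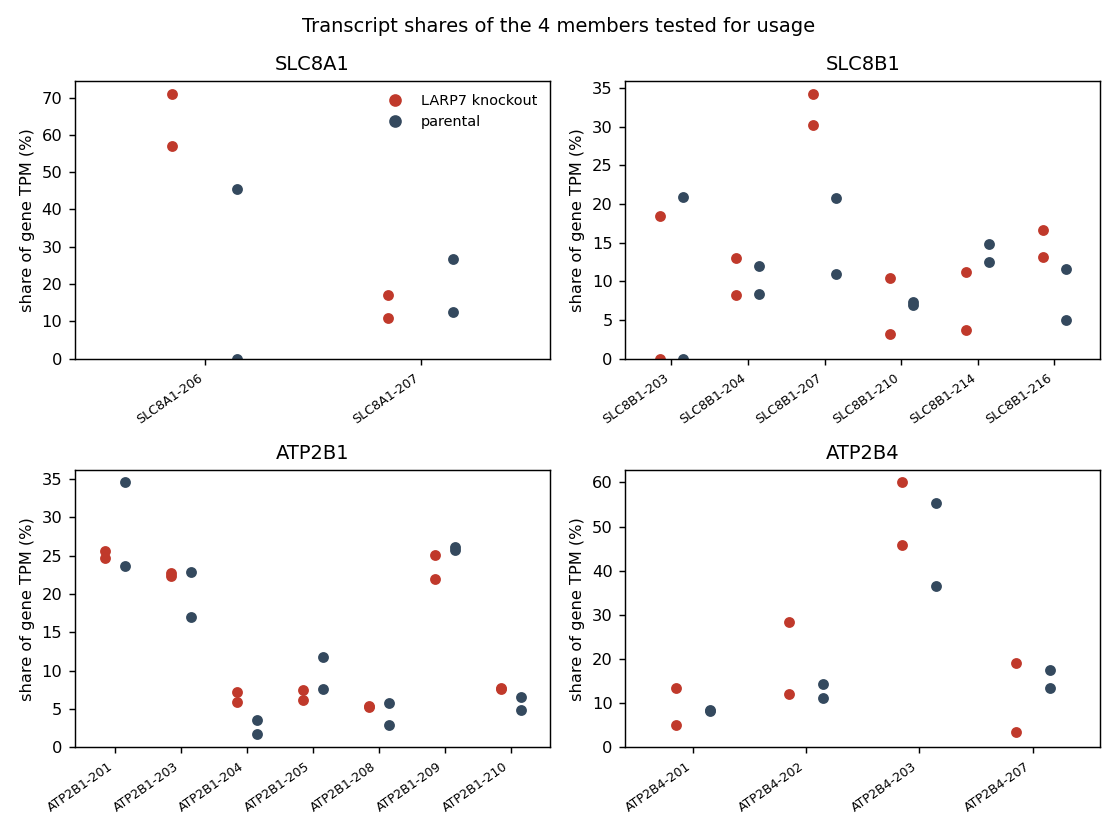
Share of the gene's TPM (percent) of each transcript that entered the usage test, for SLC8A1, SLC8B1, ATP2B1 and ATP2B4; red points are LARP7 knockout libraries and dark points parental libraries. The groups overlap for 11 of the 19 transcripts, and over all transcripts tested 34.6% do not overlap. For ATP2B1-204 the knockout libraries have 7.25% and 5.93% and the parental libraries 3.53% and 1.81%.

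ATP2B1-AS1 overlaps 82 exon bases of ATP2B1 on the opposite strand and had 7 and 8 reads in knockout cells and 18 and 5 in parental cells, too few to test. The 5 genes with profiles nearest to ATP2B1 were SPRYD3, ZNF451, SHOC2, HELB and MTMR3, at distances from 0.026 to 0.030. ZNF451 had 204.5 and 196.7 CPM in knockout cells and 166.5 and 157.0 CPM in parental cells, and its difference of 0.31 (SE 0.12) did not pass the test (adjusted p = 0.279, edgeR). Among the 20 neighbours of each gene, none was called near ATP2B1, ATP2B4, SLC8A2 or SLC8A3, and the median log2 differences were 0.22, 0.11, -0.04 and -0.02.

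Of the 8 genes, 6 had enough reads to test, and 1 of the 6, SLC8A1, passed the threshold of an adjusted p under 0.05, where 0.833% of the 18484 genes tested passed in either direction and 0.33% were higher in knockout cells. As SLC8A1 chose the family, nothing is read from that count. In CPM, both knockout libraries lay above both parental libraries for all 6 tested genes, 5 of them besides SLC8A1, where 23.5% of all genes tested did so. On the TPM scale SLC8A3 overlapped, leaving 5 of 6, against 52.1% of all genes. A filter on low counts passes a low gene more easily where one group is higher, and ATP2B2 and ATP2B3, which did not pass it, both had a lower CPM in both knockout libraries, so nothing is read from the count over the 6 genes.

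The other genes that handle calcium were taken from 8 lists of 59 genes, of which 43 could be tested. None was called in either direction by edgeR, 6 had an unadjusted p under 0.05, 29 had a positive log2 difference, and the median was 0.13. Over all 18484 genes tested, 14.3% had an unadjusted p under 0.05, 50.3% had a positive difference and the median was 0.0024. DESeq2 called 2 of the 43, where it called 2.48% of all genes. Limma voom called 1, where it called 150 of all 18484 genes.

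The pumps of internal stores fill the endoplasmic reticulum and Golgi with calcium. ATP2A2, the pump of nearly all cells and the most abundant of the list, had 391.8 and 368.6 CPM in knockout cells and 418.2 and 368.4 CPM in parental cells, which overlap. ATP2A3, a pump known from blood and epithelial cells, had 9.05 and 11.0 CPM in knockout cells and 3.69 and 3.26 CPM in parental cells. Its log2 difference of 1.52 (SE 0.28) narrowly missed the threshold (adjusted p = 0.0530, edgeR). DESeq2 gave an adjusted p of 0.00380 for it, and with transcript lengths taken into account the difference was 0.58 (SE 0.32).

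Potassium-dependent exchangers carry calcium out with potassium in exchange for sodium, and 3 of 5 could be tested. SLC24A4 had 27.4 and 27.9 CPM in knockout cells and 11.3 and 15.1 CPM in parental cells. Its log2 difference of 1.08 (SE 0.20) also narrowly missed the threshold (adjusted p = 0.0530, edgeR). DESeq2 gave an adjusted p of 0.00148 for SLC24A4 and limma voom 0.0448. With the transcript length offset its difference was 0.97 (SE 0.23, adjusted p = 0.136, edgeR). SLC24A1 had 34.1 and 31.7 CPM in knockout cells and 26.0 and 32.0 CPM in parental cells, which overlap. SLC24A2 had 1.87 and 1.95 CPM in knockout cells and 2.84 and 2.62 CPM in parental cells, with no call (adjusted p = 0.618, edgeR).

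Mitochondrial calcium uptake, which loads the matrix that SLC8B1 empties, was tested for all 8 genes, 4 with positive differences. MCUB, a subunit that dampens the uniporter, had 21.0 and 20.9 CPM in knockout cells and 16.1 and 14.2 CPM in parental cells, a log2 difference of 0.46 (SE 0.18; adjusted p = 0.298, edgeR). SMDT1, a small subunit the uniporter needs, had the lowest difference, -0.33 (SE 0.20), and LETM1, the most abundant, had 86.6 and 80.5 CPM in knockout cells and 87.8 and 65.1 CPM in parental cells.

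Release channels let calcium out of the endoplasmic reticulum. ITPR2, the most abundant of them, had 84.1 and 107.4 CPM in knockout cells and 72.0 and 87.9 CPM in parental cells, which overlap. Its log2 difference of 0.26 (SE 0.16) was not called (adjusted p = 0.514, edgeR). Per length it had 15.6 and 17.1 TPM in knockout cells and 6.34 and 5.67 TPM in parental cells. These do not overlap, and 52.1% of all genes tested were higher in both knockout libraries on this scale. With the transcript length offset the ITPR2 difference was 1.02 (SE 0.16, adjusted p = 0.0302, edgeR). Fits with a library left out were run without the offset and compare with the 0.26. There the ITPR2 difference was 0.43 (SE 0.25) without knockout replicate 1 and 0.08 (SE 0.26) without knockout replicate 2. Without parental replicate 1 it was 0.12 (SE 0.14), and without parental replicate 2 it was 0.41 (SE 0.12). ITPR3 had 42.0 and 53.1 CPM in knockout cells and 55.3 and 70.0 CPM in parental cells, a log2 difference of -0.40 (SE 0.17; adjusted p = 0.341, edgeR). RYR3 had 2.69 and 3.08 CPM in knockout cells and 1.48 and 2.22 CPM in parental cells, without a call.

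Store-operated entry refills the stores from outside the cell. STIM1, its sensor in the endoplasmic reticulum, had 38.8 and 37.1 CPM in knockout cells and 37.1 and 36.2 CPM in parental cells, a log2 difference of 0.05 (SE 0.14). TRPC5 had the highest difference of that list, 0.78 (SE 0.51), and ORAI3 the lowest, -0.44 (SE 0.72), both from low counts. Of the voltage-gated channel pores, CACNA1H led with 32.7 and 32.1 CPM in knockout cells and 30.2 and 30.2 CPM in parental cells; CACNA1G had 0.72 (SE 0.51) and CACNA1B -0.07 (SE 0.46) as log2 differences.

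Calmodulin, which activates the pumps, is made from 3 genes with the same protein. CALM2 had 339.8 and 320.4 CPM in knockout cells and 286.8 and 238.3 CPM in parental cells, and CALM3 had 99.7 and 94.7 CPM in knockout cells and 137.1 and 123.0 CPM in parental cells. Their log2 differences, 0.33 (SE 0.13) and -0.42 (SE 0.12), had opposite signs and neither was called (adjusted p = 0.299 and 0.179, edgeR). The sodium-potassium ATPase makes the sodium gradient that the exchangers use. ATP1B1, a beta subunit, had 34.3 and 32.7 CPM in knockout cells and 30.2 and 28.1 CPM in parental cells, a log2 difference of 0.20 (SE 0.15) that was not called (adjusted p = 0.592, edgeR).

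**Figure D5:**
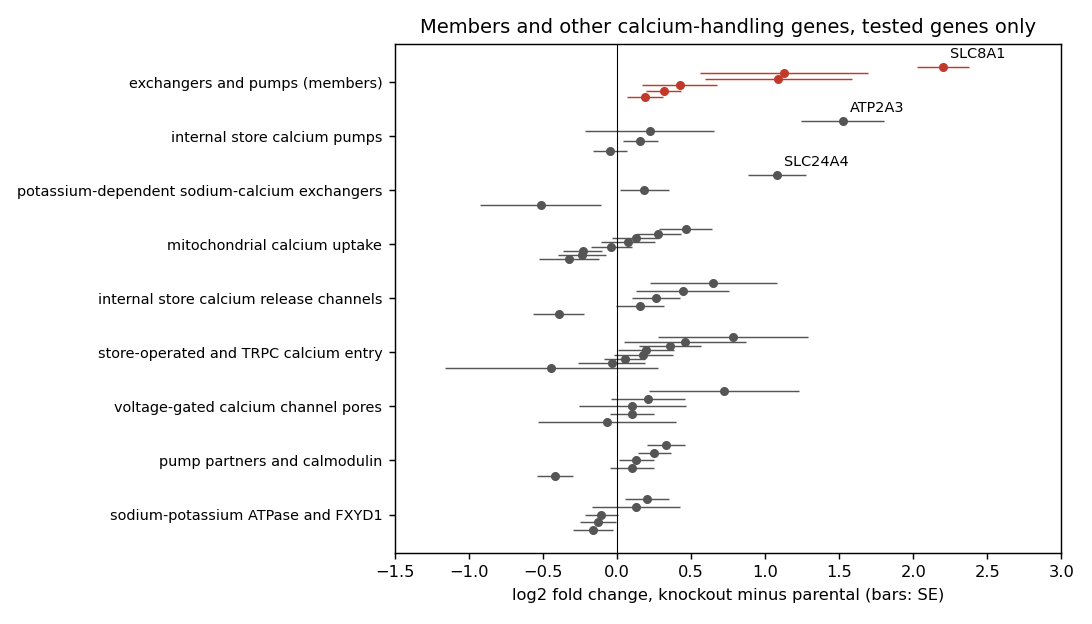
Log2 fold change of knockout minus parental with its SE (horizontal) for the 6 tested exchanger and pump genes (red, top) and the 43 tested genes of the 8 other calcium lists (grey). SLC8A1 lies at 2.20; ATP2A3 at 1.52 and SLC24A4 at 1.08 are the highest of the other lists.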

How the data were processed

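Total RNA libraries of HEK293 cells were compared, 2 from the LARP7 knockout sample and 2 from the parental sample. The deposited tables hold, per the file headers, Salmon estimated counts and TPM for each transcript; per the submitters' processing notes the tools included cutadapt 1.6, STAR 2.5.3a and Salmon 1.6 with the build hg38. The annotation release and whether strand was used are not stated there. The knockout sample's title and genotype say knockout and its source name says wildtype; the title was followed.

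Transcripts were joined to GENCODE 29 by ID; 197318 of 198002 matched and the rest held 0.0631 to 0.0711% of reads. Annotated lengths differed for 3228 of 197408 transcripts. Estimated counts were summed per gene, rounded, filtered with filterByExpr, scaled by TMM and tested with edgeR 4.0.16 in R 4.3.3 (quasi-likelihood, Benjamini-Hochberg over 18484 genes). SE is the log2 fold change over the root of F. Usage was tested with diffSpliceDGE on transcripts with at least 10 reads and 5% of gene TPM in 2 libraries (Simes p per gene). TPM also depends on the whole library: the top transcript took 7.81 and 8.19% of the TPM in knockout cells and 6.47 and 17.5% in parental cells. Counting error and Salmon's uncertainty in dividing reads among transcripts are not in the SD. Alternatives were DESeq2 1.42.0, limma 3.58.1, other scalings and filters, a transcript length offset, a replicate block and leaving out each library. Exons were read from the GENCODE 29 transcripts and aligned globally with Biopython 1.88 (match 1, mismatch -1, gap opening -3, extension -1). The tests were tested on simulated data.

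The members and lists were chosen with earlier results of these data known. Named were all 8 members and their overlapping genes, LARP7 and 7SK, of each calcium list the most abundant gene, any called gene and those with the highest and lowest tested difference, transcripts entering the usage test or else the most read, and the 5 genes with an average log2 CPM of at least 2 nearest in profile to SLC8A1 and to ATP2B1 (0.1 CPM added before log2). Some genes that this rule names are not reported here.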

Additional observations from a re-analysis of the deposited data

How the results depend on the processing

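The log2 difference of SLC8A1, which chose the family, ran from 2.08 to 2.51 over 14 alternatives of the gene fit, as a description. None of the other 5 tested genes changed direction or was called in any alternative it could be fitted in; SLC8A2 and SLC8A3 fell below the stricter filter. The log2 range was 0.25 to 0.41 for ATP2B1, 0.0018 to 0.28 for ATP2B4, 0.74 to 1.18 for SLC8A2, 0.72 to 1.45 for SLC8A3 and 0.22 to 0.61 for SLC8B1. The number of genes called over the whole table moved more: 154 as reported, 459 with DESeq2, 831 without the filter, 91 with the length offset, and 200 to 2265 with a library left out (208 without knockout replicate 1, 200 without knockout replicate 2, 2265 without parental replicate 1 and 1825 without parental replicate 2; the lone library is then assumed to vary like the others). With the replicate block 1656 of 18484 genes were called, 4 of them among the 43 tested calcium list genes, and 0 genes for usage. The deviations of same-numbered libraries from their group means, in log2 CPM over the genes tested, correlated at 0.133. With 2 libraries per group this value is the same for both pairs by construction. The replicate numbers are not stated to mark a shared culture, and 2 pairs are too few to call them paired. Genes called for usage numbered 84 as reported, 0 with limma diffSplice, 21 with a share minimum of 10%, and 0 to 129 with a library left out, 129 of them without parental replicate 1, 39 without parental replicate 2 and 0 without either knockout replicate. At an unadjusted p under 0.05, where 0 were called, there were 882 genes with limma diffSplice, 443 with the block, 397 without knockout replicate 1 and 487 without knockout replicate 2. Calcium list genes called, 0 as reported, numbered 2 with DESeq2, library size alone, no filter or protein-coding genes alone, 1 with limma voom and 1 with the length offset (ITPR2), and 0 to 7 with a library left out, 5 of them without parental replicate 1 and 7 without parental replicate 2; these counts, like the other scalings of the levels, were chosen after seeing the data. The cause of these shifts was not tested. Splits of reads among transcripts rest on few reads for SLC8A1, SLC8A2 and SLC8A3.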
